A study of Mus musculus with 48 samples.

Results

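The homeobox genes described here are 52 developmental regulators that lie outside the HOX clusters, taken by name from 14 subfamilies: Dlx1 to Dlx6, Irx1 to Irx6, Six2 to Six6, Lhx2, Lhx3, Lhx4, Lhx5, Lhx6, Lhx8 and Lhx9, Nkx1-2, Nkx2-1, Nkx2-2, Nkx2-3, Nkx2-5, Nkx2-6, Nkx2-9, Nkx3-2, Nkx6-1, Nkx6-2, Nkx6-3, Isl1, Isl2, Emx1, Emx2, Gbx1, Gbx2, En1, En2, Barx1, Barx2, Meis1, Meis2, Pbx3, Hlx, Vax1, Vax2 and Otp. They were 52 of the 21000 protein-coding genes in the RefSeq annotation of the mouse mm10 build, they lay on 14 chromosomes, and 45 of them had 1 start site. Every ATAC-seq peak within 50 kb of one of their start sites was collected from 4 peak lists, 1 for each signalling state. This gave 553 peaks with SB-431542, 513 at 1 h, 518 at 8 h and 532 in untreated cells, out of 234758, 233336, 209212 and 220004 in the same order.

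A homeobox gene encodes a transcription factor that binds DNA through a homeodomain. The members named here lay down regional and cell type identity in the embryo, such as forebrain, midbrain, eye, ventral spinal cord, heart, limb and gut mesenchyme. Meis1, Meis2 and Pbx3 encode cofactors that bind DNA together with other homeodomain proteins. In pluripotent cells the promoters of many such genes lie in broad, CpG-rich chromatin with little transcription, and ATAC-seq reports how accessible a stretch of DNA is to a transposase, not whether it is transcribed.

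P19 is a mouse embryonic teratoma cell line, and all 4 states were the same line. In the SB-431542 state, receptor signalling was blocked overnight with 10 µM SB-431542, which inhibits the type I receptors used by Activin and NODAL, and the compound was then washed out and given again for 1 h. In the 1 h and 8 h Activin states, the same overnight block and washout were followed by 20 ng/ml Activin. Untreated cells never received the inhibitor and signalled chronically through the NODAL and GDF3 that they make themselves.

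Each state had 2 biological replicates, and its libraries had been merged before peaks were called, so each state is 1 list with no replicate spread. No p-value or replicate error can be given for any difference between lists, and every value below is a description. The lowest estimated local background, a measure of depth, was 92.6% of that with SB-431542 at 1 h, 79.0% at 8 h and 84.8% in untreated cells. Of 15 markers of these pluripotent cells, 13 had a promoter peak in every list and Dppa5a had none in any. The 4 liver markers tested (Alb, Apoa1, Ttr and Afp) had none, but 5 of 6 neuron and glia markers had one in every list, and 13, 14, 14 and 13 of the 25 markers of other cell types that were found had one in the SB-431542, 1 h, 8 h and untreated lists, so a promoter peak does not by itself mark the cell type.

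The promoters of the homeobox genes were open in every signalling state, and their peaks were broad. A peak overlapped the promoter, here the window that begins 1000 bp before a start site and ends 100 bp past it, of 51 of the 52 genes (98.1%) in each of the 4 lists, against 71.2% of all protein-coding genes with a peak in every list. The same held for 53 of 55 other homeobox genes and for 31 of 31 housekeeping genes. For the homeobox genes, the widest promoter peak had a median width of 2268 bp in the SB-431542 list, 2124 bp in the 1 h list, 2272 bp in the 8 h list and 2365 bp in the untreated list. Over all protein-coding genes the medians were 1450, 1429, 1423 and 1460 bp in the same order of states, and over the other homeobox genes 2100, 2113, 2119 and 2092 bp. Housekeeping genes, which are also CpG-rich as a class, had medians of 1485, 1350, 1343 and 1322 bp. A width above 2000 bp was found for 31, 28, 29 and 32 of the 51 homeobox promoters (60.8%, 54.9%, 56.9% and 62.7%), against 23.3%, 21.8%, 22.3% and 24.4% of all promoters with a peak. With SB-431542, 23 of the 51 lay in the widest 10% of all promoter peaks, which began at 2563 bp, and 18 did so in untreated cells.

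Sequences are shown for 3 promoters with the extremes of width or shift. Nkx2-1 had the widest peak with SB-431542 and a low fold enrichment, Isl2 had the promoter with the largest upward shift at 8 h, and Irx4 the largest downward one. They are the 250 bases before the start site in the gene's own direction (RefSeq promoter table, GRCm38.p6, whose chromosomes are those of mm10), with CpG dinucleotides in capitals. The windows are chr12:56536909-56537158 on the minus strand for Nkx2-1, chr9:55540899-55541148 on the plus strand for Isl2 and chr13:73260247-73260496 on the plus strand for Irx4.
Nkx2-1 promoter: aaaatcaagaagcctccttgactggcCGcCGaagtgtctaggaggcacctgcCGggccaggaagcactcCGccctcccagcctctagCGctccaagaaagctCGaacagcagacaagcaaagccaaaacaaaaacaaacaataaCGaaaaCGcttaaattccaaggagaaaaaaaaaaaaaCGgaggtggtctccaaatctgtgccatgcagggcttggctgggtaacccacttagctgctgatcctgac
Isl2 promoter: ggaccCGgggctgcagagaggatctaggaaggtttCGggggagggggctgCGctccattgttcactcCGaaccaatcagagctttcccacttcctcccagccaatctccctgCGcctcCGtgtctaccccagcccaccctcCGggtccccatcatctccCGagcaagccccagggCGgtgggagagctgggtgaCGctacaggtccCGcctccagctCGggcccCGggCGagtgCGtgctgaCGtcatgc
Irx4 promoter: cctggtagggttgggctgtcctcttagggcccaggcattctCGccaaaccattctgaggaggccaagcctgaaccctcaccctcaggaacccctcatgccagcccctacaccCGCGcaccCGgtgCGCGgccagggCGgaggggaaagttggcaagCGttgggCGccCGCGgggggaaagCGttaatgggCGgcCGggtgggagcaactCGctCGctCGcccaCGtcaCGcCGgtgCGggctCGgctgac
The Nkx2-1 window held 9 CpG at 50.8% G+C, the Isl2 window 16 at 66.8% and the Irx4 window 22 at 68.8%. The promoter with the widest peak was thus the one of the 3 with the fewest CpG in this window.

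Peaks of 5 regions outside promoters are shown next, because they are single peaks in each list that holds them and carry the shifts described further on. Each is a window of 300 bp centred on its highest peak, read from mm10 on the plus strand (at Six3 the window runs past both ends of the 292-bp peak), and none of them overlaps an annotated exon. The windows are chr2:116095338-116095637, 28.3 kb upstream of Meis2; chr11:95137314-95137613, 7.97 kb downstream of the Dlx4 start; chr12:56595729-56596028, 17.4 kb downstream of Nkx2-9; chr13:116342340-116342639, 32.8 kb upstream of Isl1; and chr17:85576194-85576493, 44.5 kb upstream of Six3. Capitals mark matches, on either strand, to TAATTA (the homeodomain core), TGACAG (MEIS and PBX class), CACTTNA (NKX2 class), GTAAACA (FOX), AATNCACA (FOXH1), AGACAG and GTCTAGAC (SMAD), CTTTGAT (TCF/LEF) and CCGCCCC (GC box).
Meis2 upstream: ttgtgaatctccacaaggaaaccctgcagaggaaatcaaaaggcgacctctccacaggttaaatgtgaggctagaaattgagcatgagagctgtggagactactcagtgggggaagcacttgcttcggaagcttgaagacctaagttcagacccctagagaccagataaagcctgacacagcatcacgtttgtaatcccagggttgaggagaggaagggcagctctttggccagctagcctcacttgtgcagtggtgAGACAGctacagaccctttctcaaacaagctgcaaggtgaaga
Dlx4 downstream: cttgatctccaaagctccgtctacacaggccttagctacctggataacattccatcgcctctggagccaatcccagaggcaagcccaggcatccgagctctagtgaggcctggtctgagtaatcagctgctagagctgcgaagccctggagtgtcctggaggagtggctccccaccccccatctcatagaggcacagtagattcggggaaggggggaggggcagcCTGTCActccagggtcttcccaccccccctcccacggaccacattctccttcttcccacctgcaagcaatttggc
Nkx2-9 downstream: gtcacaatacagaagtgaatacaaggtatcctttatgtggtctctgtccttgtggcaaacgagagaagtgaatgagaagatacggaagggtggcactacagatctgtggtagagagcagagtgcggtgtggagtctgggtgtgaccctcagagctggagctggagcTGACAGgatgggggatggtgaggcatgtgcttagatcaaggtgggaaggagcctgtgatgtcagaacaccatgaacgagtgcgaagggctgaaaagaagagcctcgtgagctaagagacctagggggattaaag
Isl1 upstream: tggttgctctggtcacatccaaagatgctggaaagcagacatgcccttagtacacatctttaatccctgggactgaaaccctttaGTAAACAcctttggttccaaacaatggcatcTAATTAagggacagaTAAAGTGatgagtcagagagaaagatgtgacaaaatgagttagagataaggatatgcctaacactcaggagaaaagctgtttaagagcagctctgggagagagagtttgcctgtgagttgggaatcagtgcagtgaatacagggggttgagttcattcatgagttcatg
Six3 upstream: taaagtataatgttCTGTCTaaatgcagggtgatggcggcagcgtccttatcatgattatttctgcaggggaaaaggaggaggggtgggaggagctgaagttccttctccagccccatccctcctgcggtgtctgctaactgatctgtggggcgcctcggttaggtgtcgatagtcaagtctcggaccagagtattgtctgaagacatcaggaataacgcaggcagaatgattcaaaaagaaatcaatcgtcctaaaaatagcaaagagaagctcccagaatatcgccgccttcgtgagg
The Isl1 window held no CpG and 1 match each of the homeodomain core, the NKX2 class and the FOX motif. The Dlx4 and Nkx2-9 windows each held 1 match of the MEIS and PBX class, and the Meis2 and Six3 windows each 1 of the first SMAD motif. Over all regions outside promoters, TGACAG was in 21.2% and AGACAG in 32.2% of the central 300 bp. The whole Dlx4 region also held 2 matches of AGACAG and 1 of TAATTA, and the whole Isl1 region 3 of the NKX2 class. All these matches are letters in a sequence, and no binding was measured.

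Width varied more than 10-fold among the 51 genes in every list. In the Nkx subfamily, Nkx2-1, which specifies thyroid, lung and ventral forebrain, had the widest promoter peak of the set with SB-431542 (chr12:56532698-56538871 for the merged region), at 5884 bp, and then 5360, 4757 and 4759 bp at 1 h, at 8 h and in untreated cells. Its fold enrichment, the authors' ratio of pileup to local background, was only 1.94, 1.93, 1.97 and 1.89 in the same states. The widest promoter with SB-431542 was thus also one of the least enriched. A peak has 1 such value for its whole width, and the part of width in it was not tested. At the other end, Six3, a forebrain and eye regulator (chr17:85620281-85620835), had peaks of 546, 508, 474 and 536 bp with a fold enrichment of 1.62, 1.83, 1.51 and 1.68. The narrow peaks included those of Nkx2-6 (787, 651, 757 and 711 bp) and Nkx2-5 (1096, 662, 1183 and 1058 bp), both linked to the heart and pharynx. They lay below the median width of all genes in every list.

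**Figure D1:**
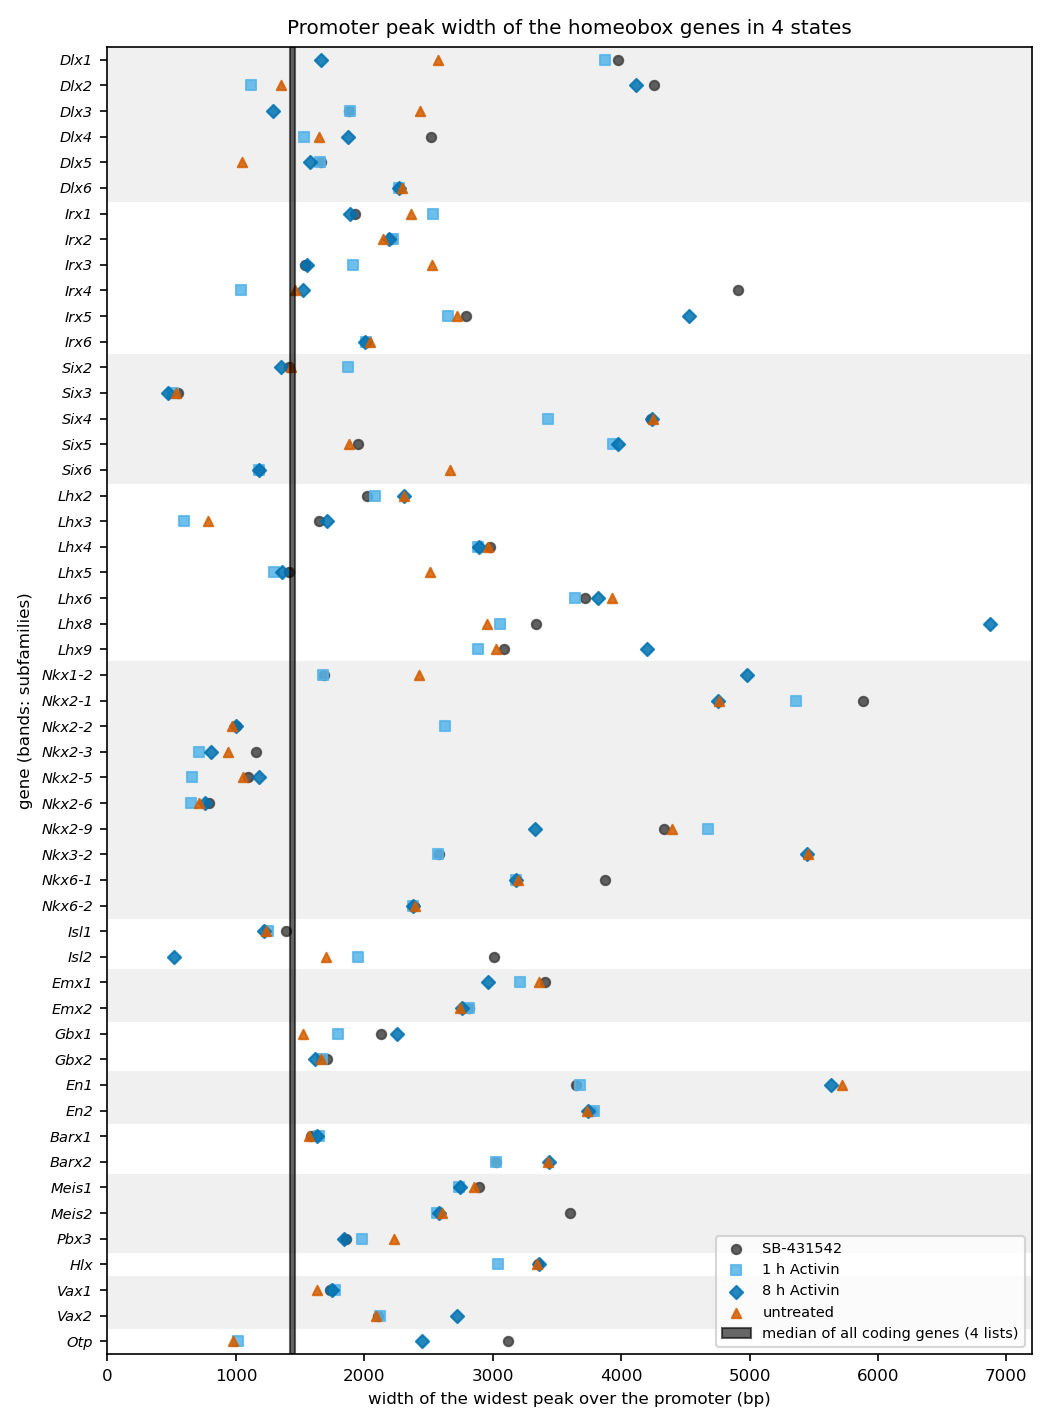
Width of the widest peak over the promoter, in bp on the horizontal axis, for the 51 homeobox genes with a promoter peak, grouped by subfamily; each point is 1 of the 4 lists and the dark band spans the median of all protein-coding genes (1423 to 1460 bp). Points of 1 gene mostly lie together and to the right of the band, with large jumps for Irx4, Dlx2, Otp, Isl2, Lhx8 and Nkx1-2.

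In the Dlx subfamily, which works in ventral forebrain interneurons and in the jaw, Dlx2 (chr2:71542774-71547034) was the widest with SB-431542, and its width alternated between states: 4258, 1118, 4119 and 1353 bp with SB-431542, at 1 h, at 8 h and in untreated cells. In the 2 lists with the narrow peak the same 4.3-kb promoter region held 2 peaks instead of 1. Irx4, the Iroquois gene of the cardiac ventricle (chr13:73259629-73265893), had 4909 bp with SB-431542 against 1040, 1523 and 1460 bp in the 3 signalling states. Six4, expressed in muscle precursors, varied less, with 4234, 3432, 4238 and 4248 bp. Lhx6, a LIM-homeodomain gene of cortical interneurons (chr2:36101919-36105972), had 3721, 3644, 3818 and 3929 bp, and its width differed by less than 1.5 times between any of the lists.

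Among the smaller subfamilies, the motor neuron gene Isl2 (chr9:55538552-55542738) had 3014, 1948, 518 and 1699 bp in the order of states SB-431542, 1 h, 8 h and untreated. Emx1, a gene of the dorsal telencephalon, had 3407, 3210, 2966 and 3361 bp. Gbx1, of the dorsal spinal cord, had 2130, 1797, 2254 and 1520 bp. These values show both kinds of behaviour, a stable broad peak at Emx1 and a broad peak that broke into pieces at Isl2. En2, of the midbrain and hindbrain boundary (chr5:28165343-28169132), differed least between lists among these, with 3775, 3790, 3744 and 3735 bp. Barx2 had 3027, 3028, 3441 and 3433 bp. Meis2 had 3599 bp with SB-431542 and 2570, 2583 and 2606 bp in the signalling states. Hlx, of visceral mesenchyme, had 3356, 3038, 3363 and 3346 bp, and Vax2, of the ventral retina, 2109, 2124, 2719 and 2093 bp. Otp, a hypothalamic gene (chr13:94872741-94875865), alternated as Dlx2 did, with 3116, 1013, 2450 and 978 bp.

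Promoter widths of 30 of the 51 genes stayed within 1.5 times across all 4 lists. At 1 h Activin, 2 promoter peaks were more than 1.5 times wider and 8 more than 1.5 times narrower than with SB-431542, against 2.42% and 4.29% of all genes. At 8 h, 6 were wider and 3 narrower, against 3.00% and 4.86%, and in untreated cells 5 were wider and 8 narrower, against 4.47% and 4.46%. The widest peak of a gene was most often that of SB-431542, for 18 genes, and least often that at 1 h, for 9. The SB-431542 list was also the deepest of the 4. Neither these counts nor that of the 30 genes has a share over all genes beside it, so they are not read as particular to the set.

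Nkx6-3, a gene of the stomach epithelium, was the only member without a promoter peak in any list. It had the fewest regions within 50 kb of its start, 5, and each of these was present in all 4 lists. The nearest were the promoter of the neighbouring Gm15816, 3.16 kb upstream, where fold enrichment stood at 4.90, 4.71, 4.34 and 4.52 (SB-431542, 1 h, 8 h, untreated), and an untranslated exon of Nkx6-3 itself, 4.86 kb downstream of its start, with 3.99, 3.57, 3.51 and 3.68. The other 3 lay in an intron of Ank1, between genes 16.6 kb downstream, and in an intron of Gpat4. Peaks were thus called on both sides of the Nkx6-3 start but not at it.

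The broad promoter peaks had a high estimated pileup, a high estimated local background and a moderate fold enrichment. To compare lists of different depth, the highest fold enrichment of each region was turned into its percentile among the 162505 regions shared by the 4 lists. The median percentile of the 51 promoters was 49.5 with SB-431542, 54.0 at 1 h, 48.1 at 8 h and 47.5 in untreated cells, against 85.03, 86.6, 83.5 and 83.9 for all promoters. The other homeobox genes had 51.6, 54.4, 45.7 and 46.4, and their promoters thus resembled the 52 genes in width and in level. Pileup and background were estimated from the deposited fold enrichment and −log10 p. Each broad peak has 1 value of each for its whole width and was treated as 1 Poisson point. The estimates are therefore approximate, and they were not checked against read coverage. The median background estimated in this way was 132.7, 104.7, 91.6 and 84.8 pileup units at the homeobox promoters, against 75.1, 60.2, 56.1 and 57.1 over all promoters. The estimated pileup ranked at percentiles of 91.6, 91.6, 89.8 and 87.3, against 92.8, 92.4, 92.1 and 92.0, which is close to the level of all promoters in the first 2 states and lower in untreated cells. MACS2 takes the background term from the surrounding reads of the same library. Whether this term or the peak width accounts for the moderate fold enrichment was not tested.

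**Figure D2:**
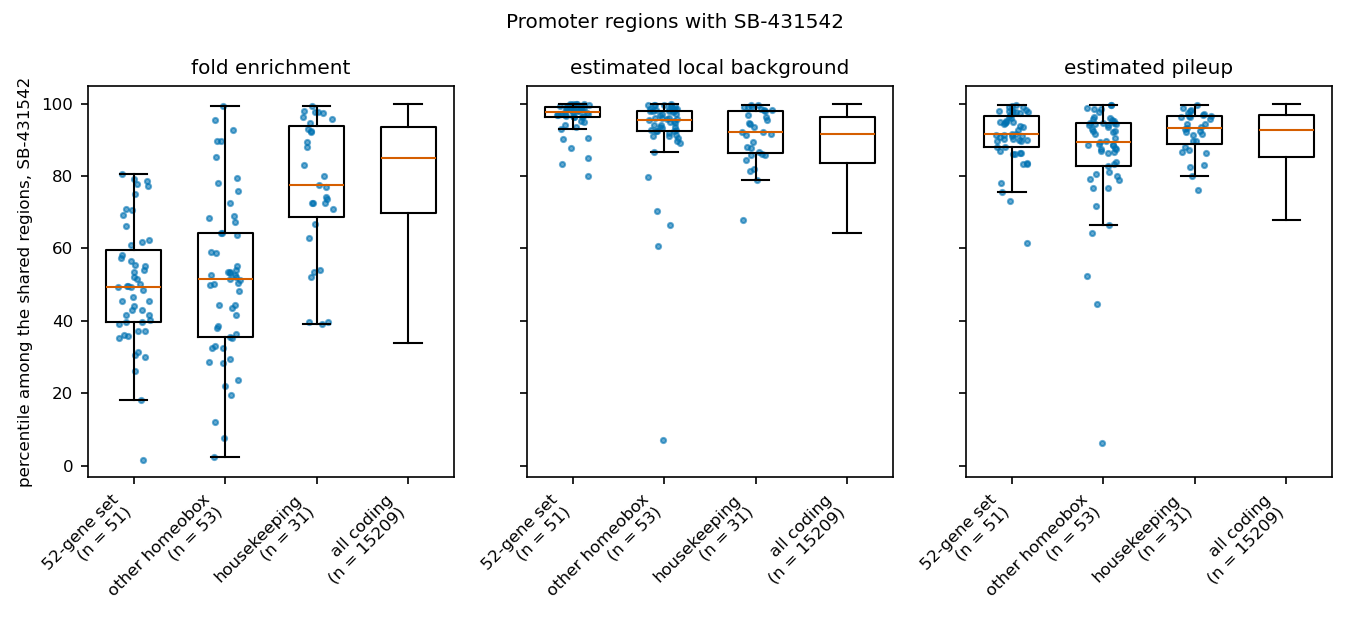
Percentile of each promoter region among the 162505 shared regions with SB-431542 (vertical axis, 0 to 100), for fold enrichment, estimated local background and estimated pileup; points are genes (not drawn for all coding genes), boxes span the quartiles with the median as a line, and whiskers reach the last value within 1.5 times the box height. Homeobox promoters lie near the middle of the fold enrichment scale (median 49.5 against 85.03 for all) but near the top for pileup (91.6 against 92.8).

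Within the set, levels ranged more widely between genes than the medians did between states. Isl2 (78.7, 78.4, 93.2 and 92.6), Pbx3 (79.3, 81.8, 80.2 and 83.1), Isl1 (78.0, 83.9, 80.6 and 80.1), Irx6 (75.02, 77.8, 76.9 and 72.2) and Dlx4 (77.3, 81.2, 70.7 and 77.3) lay at percentiles above 70 of fold enrichment in every list, in the order SB-431542, 1 h, 8 h and untreated. Isl1, a gene of motor neurons and cardiac progenitors, also had the highest estimated pileup of the set with SB-431542, 1045 units at percentile 99.8. Nkx2-1 (18.2, 20.8, 19.4 and 14.6) and Six3 (1.63, 14.0, 0.0403 and 2.57) were the lowest with SB-431542. Six3 was the lowest of the set with SB-431542, at 8 h and in untreated cells, and Nkx2-2, at percentile 13.8, was the lowest at 1 h.

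One hour of Activin left the homeobox promoters at about the same place, with a small upward drift in rank. Of the 51 promoters, 44 had a higher percentile and 7 a lower one at 1 h than with SB-431542. The median shift was 4.26 points, against 3.17 over the other homeobox promoters and 1.27 over all promoters. The lower quartile of the shift over all promoters was 0.036 points, so most of them rose as well. A shift of more than 10 points upward was found for 5 (9.80%, against 2.83% of all promoters) and downward for 1 (1.96%, against 2.02%). All promoters lay nearer the top of the scale, at a median percentile of 85.03 with SB-431542, against 49.5 for these. Over all shared regions, with a median of 50, the shares were 11.3% upward and 12.1% downward. The 5 were Dlx2, Lhx3, Otp, Six3 and Lhx6, and the 1 was Nkx2-2, a ventral neural tube gene. For Dlx2 the fold enrichment was 2.79 at 1 h and 2.42 with SB-431542, a shift of 17.9 points, but its single peak of 4258 bp with SB-431542 was cut into 2 at 1 h. Weighted by peak width, the fold enrichment of the Dlx2 region was 2.32 at 1 h and 2.42 with SB-431542, the opposite direction. Lhx3, a gene of the pituitary and of motor neurons, shifted by 15.8 points with fold enrichments of 2.54 and 2.29 (at 1 h and with SB-431542) and by weighted values of 2.24 and 2.29. Otp shifted by 15.6 points with 3.04 and 2.68, and by weighted values of 2.59 and 2.68. So the 3 largest upward shifts all came with a broad peak that had broken up, and none held on the weighted value. Six3 (1.83 at 1 h and 1.62 with SB-431542) and Lhx6 (2.49 and 2.38) had 1 peak of similar width in both lists, with shifts of 12.3 and 10.1 points.

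The downward shift at 1 h had the reverse shape. Nkx2-2 had 1 peak of 2628 bp at 1 h and 2 peaks, the wider of 1001 bp, with SB-431542, and its fold enrichment was 1.83 and 2.08 in these lists, a shift of −12.2 points. The next lowest shifts, those of Six5 (−8.23 points, with fold enrichments of 2.90 at 1 h and 3.54 with SB-431542) and of Gbx2 (−3.70 points, with 2.095 and 2.27), did not pass 10 points.

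**Figure D3:**
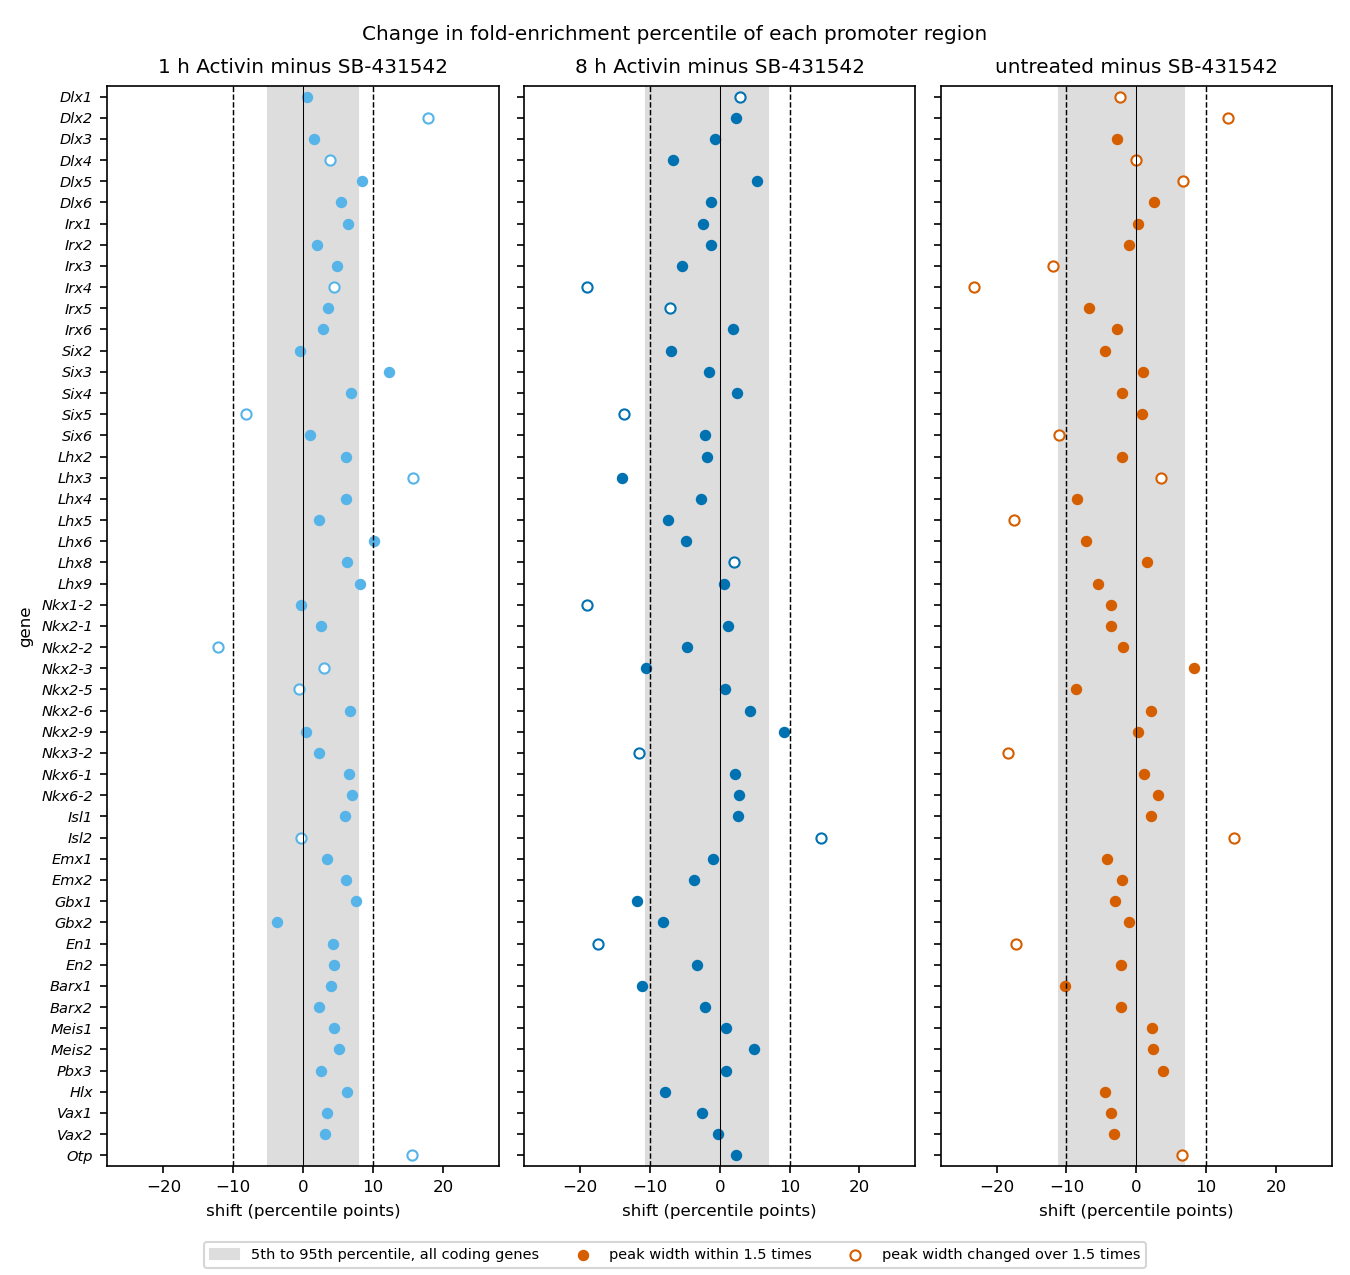
Shift in the percentile of fold enrichment of each homeobox promoter relative to SB-431542, in percentile points on the horizontal axis, in 3 panels for 1 h Activin, 8 h Activin and untreated cells; filled points are promoters whose peak width stayed within 1.5 times, open points those whose width changed more, dashed lines stand at 10 points and the grey band spans the 5th to 95th percentile of all coding genes. Most of the points beyond the dashed lines are open, and 33 of the 51 promoters lie within 10 points in all 3 panels.

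After 8 h of Activin, and in untreated cells, the drift was downward. Both comparisons share the SB-431542 list, so their values are given side by side and are not independent. The median shift was −1.84 points at 8 h and −2.11 points in untreated cells, against −0.77 and −0.57 over all promoters, and 32 of the 51 promoters were lower than with SB-431542 in each. With negative medians in both comparisons, most of all promoters were lower as well. At 8 h, 1 promoter was more than 10 points higher (1.96%, against 2.98% of all) and 9 were lower (17.6%, against 5.45%). In untreated cells 2 were higher (3.92%, against 3.01%) and 7 lower (13.7%, against 6.13%). Over all shared regions, whose levels are nearer to those of these promoters, 18.5% were lower at 8 h and 18.8% in untreated cells. The downward shares of the homeobox promoters were thus above those of all promoters but not above those of all shared regions. The other 53 homeobox promoters had 6 higher and 0 lower at 1 h, 5 higher and 4 lower at 8 h, and 2 higher and 7 lower in untreated cells. Their median shift was −2.05 points at 8 h and −2.21 points in untreated cells, close to that of the 51. Of the 51, Irx4, En1, Nkx3-2 and Barx1 were lower in both states.

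Isl2 was the promoter that was higher in both. Its fold enrichment was 5.53 at 8 h and 5.20 in untreated cells, against 4.05 with SB-431542, shifts of 14.5 and 13.9 points. The peak at its start was 518 bp wide at 8 h and 1699 bp in untreated cells, against 3014 bp with SB-431542, and the weighted fold enrichment was lower (2.68 and 3.70, against 3.87). The −log10 q of the peak over the start was 206.4, 181.7 and 183 in the same lists. Dlx2 was higher in untreated cells, by 13.1 points (2.77, against 2.42 with SB-431542), again with a broken peak. The next largest upward shifts stayed under 10 points: Nkx2-9 (9.26 points) and Dlx5 (5.31 points) at 8 h, and Nkx2-3 (8.19 points) in untreated cells.

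Irx4 had the largest downward shift in both states, −18.98 points at 8 h and −23.2 points in untreated cells, with fold enrichments of 2.16 and 2.09, against 2.66 with SB-431542. The value with SB-431542 belonged to a separate 452-bp peak from 4.94 to 5.39 kb downstream of the start, which at 8 h was part of a peak of 3833 bp and in untreated cells of one of 2592 bp. The peak over the Irx4 start itself had fold enrichments of 1.82 at 8 h and 1.77 in untreated cells, against 1.93 with SB-431542. Weighted by width, the fold enrichment of the Irx4 region was 2.06 at 8 h and 1.97 in untreated cells, against 1.99 with SB-431542, so its direction at 8 h was the opposite. En1, of the midbrain and hindbrain boundary (chr1:120601529-120607247), had 1 peak of 5633 bp at 8 h and of 5719 bp in untreated cells, where SB-431542 had 2, of which the wider had 3645 bp. En1 shifted by −17.5 and −17.2 points, with fold enrichments of 1.88 and 1.89, against 2.19, and with weighted values of 1.88 and 1.89, against 2.07.

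Nkx1-2 (−18.95 points at 8 h, with 2.44 against 3.14 with SB-431542) and Nkx3-2, a cartilage gene (−18.3 points in untreated cells, with 2.34 against 2.93), likewise had 1 wide peak where SB-431542 had 2. The weighted values were 2.44 against 2.57 for Nkx1-2 at 8 h and 2.34 against 2.35 for Nkx3-2 in untreated cells, while for Nkx3-2 at 8 h they went the other way, with 2.50 against 2.35. Lhx5, of the forebrain, shifted by −17.6 points in untreated cells, with 2.07 against 2.46, and its single peak was 2508 bp wide, against 1414 bp with SB-431542. Of the 9 downward promoters at 8 h, 5 had changed in width by more than 1.5 times, and of the 7 in untreated cells, 6 had.

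The downward shifts without such a change of shape were those of Barx1, Gbx1, Lhx3 and Nkx2-3 at 8 h and of Barx1 in untreated cells. Barx1, which patterns stomach mesenchyme and teeth (chr13:48662290-48663956), had peaks of 1585, 1644, 1634 and 1570 bp with fold enrichments of 2.72, 2.66, 2.36 and 2.39 with SB-431542, at 1 h, at 8 h and in untreated cells. The levels at 8 h and in untreated cells thus lay together and below the other 2. Gbx1 had 2.17 at 8 h against 2.46 with SB-431542, Lhx3 had 2.01 against 2.29, and Nkx2-3, a gene of spleen and gut mesenchyme, had 2.98 against 3.56 but 3.89 in untreated cells. Among promoters with 1 peak in both lists and widths within 1.5 times, a restriction chosen after seeing the data, 4 of 38 were lower at 8 h (10.5%, against 4.28% of all such promoters) and 1 of 31 in untreated cells (3.23%, against 4.78%). The share in untreated cells was then no longer above that of all promoters. By width-weighted fold enrichment, which keeps all 51, 7 were lower at 8 h (13.7%, against 5.14% of all promoters). In untreated cells 8 were (15.7%, against 5.83%). Over all shared regions in this ranking the shares were 18.3% and 18.6%.

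Regions were also ranked by estimated pileup instead of fold enrichment. On this scale most homeobox promoters stood above percentile 90 with SB-431542, so an upward shift of more than 10 points was out of reach for them and the upward counts say nothing. Downward shifts of more than 10 points were found for 0 of the 51 at 1 h (against 1.58% of all promoters in this ranking), for 0 at 8 h (against 2.36%) and for 1 in untreated cells (1.96%, against 3.23%). This was Lhx5, at percentile 74.8 in untreated cells and 86.4 with SB-431542. The median shift in this rank was −0.06 points at 1 h, −1.79 points at 8 h and −2.70 points in untreated cells, against −0.22, −0.32 and −0.36 over all promoters. The median shift was thus downward in the 8 h and untreated lists with either measure.

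**Figure D4:**
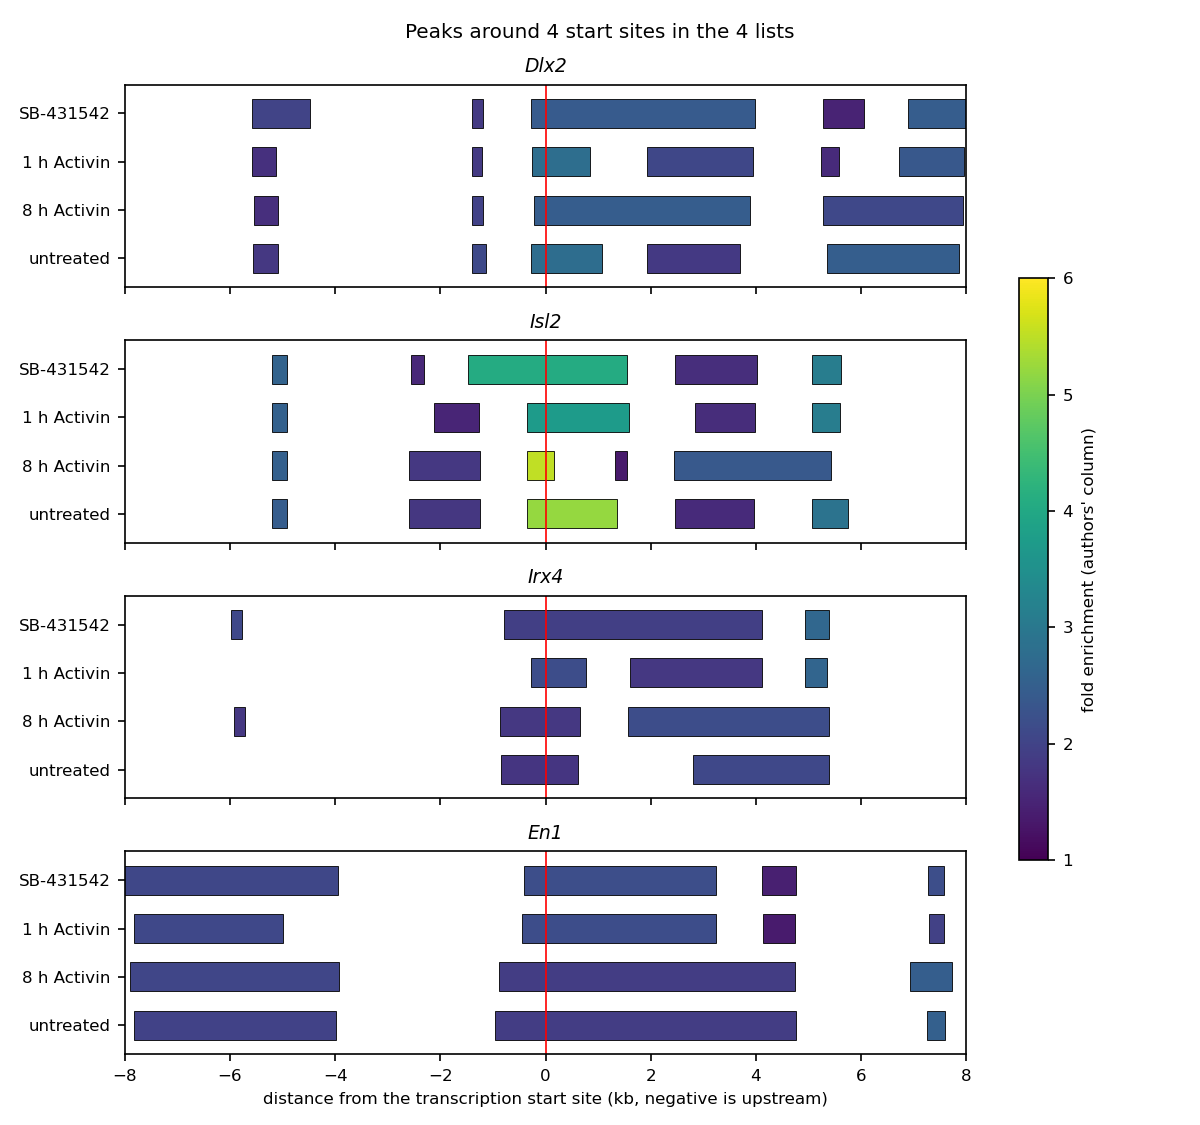
Peaks of the 4 lists within 8 kb of the start sites of 4 homeobox genes, Dlx2, Irx4, Isl2 and En1, with distance from the start in kb on the horizontal axis (negative is upstream), 1 row per state and the colour giving the authors' fold enrichment. The 4258-bp peak of Dlx2 with SB-431542 is in 2 pieces at 1 h and in untreated cells, the Isl2 peak is 518 bp wide at 8 h, and En1 has 1 peak of 5633 bp at 8 h.

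Around the genes, open regions were about as numerous as around other genes, and most were common to the 4 states. Merging the lists gave 595 regions within 50 kb of a member, of which 38 were counted for a pair of neighbouring members (14 for Dlx5 and Dlx6, 13 for Dlx3 and Dlx4, 7 for Dlx1 and Dlx2, 3 for Six2 and Six3, and 1 for Nkx2-1 and Nkx2-9). The median gene had 12 regions, with a 95% interval of the median of 10 to 14, against 11 for all protein-coding genes. It was 12 for the other homeobox genes and 13 for the housekeeping genes. The range was 5 for Nkx6-3 to 21 for Vax2, followed by Hlx with 19. Of the 595 regions, 428 (71.9%) had a peak in every list, against 56.6% of all merged regions. Over promoters of any gene the shares were 85 of 89 (95.5%, against 92.2%), and outside promoters 343 of 506 (67.8%, against 54.2%). Only 64 (10.8%) were in a single list, against 18.1%.

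The central 300 bp of the regions outside promoters were richer in CpG around these genes than elsewhere. The median G+C was 50.7%, against 46.7% over all 269713 such regions, and the median ratio of observed to expected CpG was 0.233, against 0.140. A ratio above 0.6 was found for 9.49%, against 1.35%. Over promoters the 2 sets were alike, with a median G+C of 60.7%, against 60%, and a CpG ratio of 0.693, against 0.651. Outside promoters, CCGCCCC was found in 6.13% of the regions around the genes, against 2.47% of all. TAATTA was in 7.11%, against 7.42%, TGACAG in 19.4%, against 21.2%, and CACTTNA in 12.5%, against 14.9%. AATNCACA was in 3.95%, against 5.83%, AGACAG in 28.1%, against 32.2%, CTTTGAT in 3.75%, against 5.48%, GTAAACA in 3.95%, against 4.47%, and GTCTAGAC in 0, against 0.286%. TGACAG and AGACAG share their last 5 letters but cannot match at the same place, and the shares move with base composition. A comparison of promoter sequence over the whole set was void, because the RefSeq promoter table matched 37 of the 52 genes (71.2%), under the 80% required. The genes not matched were Dlx3, Dlx4, Dlx5, Dlx6, Irx1, Irx5, Irx6, Lhx5, Nkx2-6, Nkx6-3, Gbx1, En2, Barx2, Pbx3 and Vax2.

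Shifts of the 428 shared regions were no more frequent around the homeobox genes than over the genome. At 1 h, 34 were more than 10 points higher (7.94%, against 11.3% of all shared regions) and 50 lower (11.7%, against 12.1%). At 8 h, 53 were higher (12.4%, against 18.7%) and 71 lower (16.6%, against 18.5%). In untreated cells 47 were higher (11%, against 19.9%) and 77 lower (18%, against 18.8%). Among the 343 outside promoters alone, 29 were higher and 48 lower at 1 h (8.46% and 14.0%, against 12.2% and 13.2%), 50 and 58 at 8 h (14.6% and 16.9%, against 20.3% and 19.7%), and 44 and 67 in untreated cells (12.8% and 19.5%, against 21.6% and 20.0%). Regions gained, with a peak in the signalling state and none with SB-431542, were 13 of 543 at 1 h (2.39%, against 10.6%), 35 of 565 at 8 h (6.19%, against 9.2%) and 40 of 570 in untreated cells (7.02%, against 11.7%). With a −log10 q minimum of 5, the share gained at 1 h was 2.77%, against 4.18%. Regions lost were 57 at 1 h (10.5%, against 11%), 70 at 8 h (12.4%, against 19.4%) and 60 in untreated cells (10.5%, against 17.1%). At 8 h, Nkx2-9 had lost 5 of the 11 regions it had with SB-431542, Lhx8 3 of 7 and Hlx 6 of 17. These genes were picked after their counts were seen, and no share over all genes on this basis stands beside them. The 8 h list was also the shallowest.

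**Figure D5:**
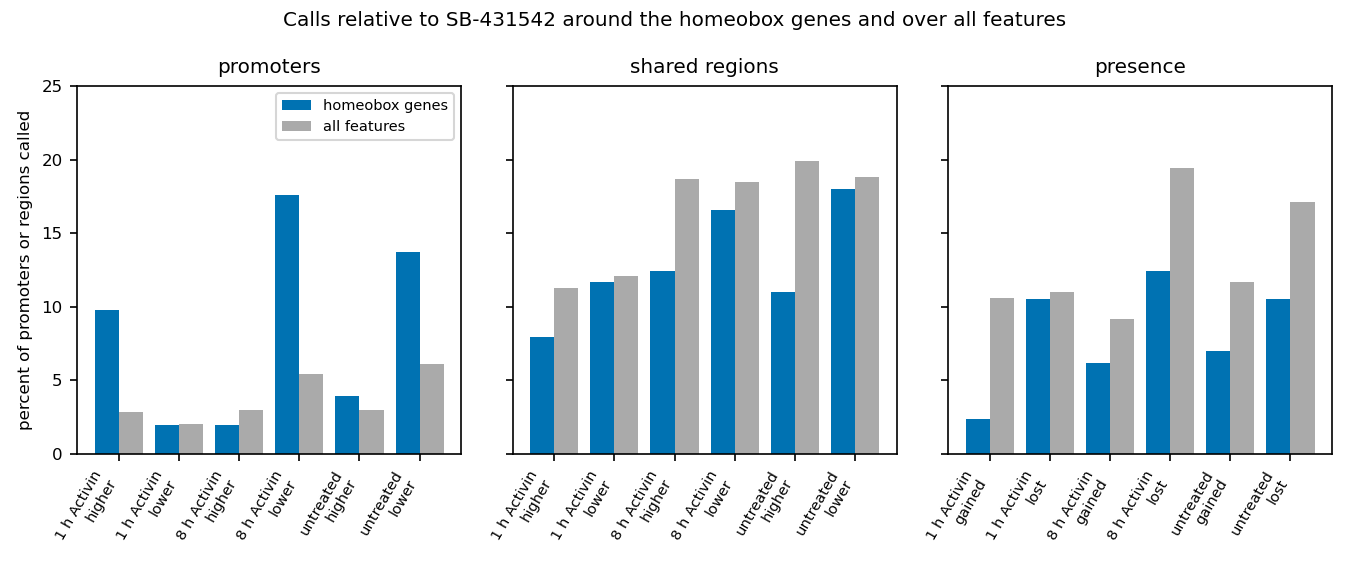
Percent of homeobox promoters (left) and of regions within 50 kb of the genes (other panels) called relative to SB-431542, beside the percent over all features, for the 1 h, 8 h and untreated lists; blue bars are the homeobox genes and grey bars all features, and every axis starts at 0. Downward promoter shifts at 8 h (17.6%) stand above the share over all promoters (5.45%) but not above that over all shared regions (18.5%). Gained regions at 1 h (2.39%) lie below the share over all regions (10.6%). With a −log10 q minimum of 5 these shares were 2.77% and 4.18%.

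Among the regions with the largest downward shifts, 3 were open with SB-431542 and at 1 h and weaker at 8 h and in untreated cells. The region 32.8 kb upstream of Isl1, between genes at chr13:116342126-116342919, had fold enrichments of 3.71, 3.65, 2.28 and 2.302 with SB-431542, at 1 h, at 8 h and in untreated cells, and −log10 q of 31.9, 29.0, 6.23 and 6.78. The region 17.4 kb downstream of Nkx2-9 (chr12:56595639-56596144, intergenic) had 2.73, 2.51, 1.77 and 1.80. The region 7.97 kb downstream of the Dlx4 start (chr11:95137173-95138481, intergenic and also within 50 kb of Dlx3) had 3.00, 3.07, 2.104 and 1.81. In these 3 the first 2 states lay together and above the other 2. Each had 1 peak in every list, although its width varied most at Dlx4, with 882, 419, 1298 and 296 bp, and their shifts at 8 h lay between −31.5 points for Dlx4 and −44.9 points for Nkx2-9.

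Other regions were more open after 8 h or in untreated cells. The region 28.3 kb upstream of Meis2 (chr2:116095320-116096110, intergenic) had fold enrichments of 2.16, 2.12, 3.38 and 2.82, with −log10 q of 6.42, 5.62, 18.5 and 12.7, and its shift of 39.5 points at 8 h was the largest upward one outside promoters near the set. The region 38.6 kb upstream of Dlx4 (chr11:95184021-95184834, intergenic) had 1.98, 2.01, 2.80 and 2.14, high at 8 h alone. Upstream of Nkx2-6, in an intron of 1700092C10Rik (chr14:69168894-69170066), the values were 1.63, 1.68, 2.02 and 2.36. The region 26.6 kb downstream of Lhx6, in an intron of Morn5 (chr2:36077194-36077691), had 2.39, 1.87, 2.66 and 3.41, lowest at 1 h and highest in untreated cells.

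The region 9.79 kb downstream of En2 (chr5:28174023-28176946, intergenic) had the largest upward shift at 1 h, 36.9 points, with fold enrichments of 2.90, 5.30, 5.52 and 4.80 in the 4 lists. It was 1 peak of 2892 bp with SB-431542 and 2 peaks in each other list, and its weighted values were 2.90, 2.84, 2.68 and 2.60, in the opposite direction. The direction at En2 thus differed between the highest and the weighted value, whereas the Meis2 region was 1 peak in every list.

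At 1 h, 2 further upward shifts were read. A region 48.6 kb upstream of Lhx9, a gonad and forebrain gene (chr1:138895974-138896404, intergenic), had 1.86, 2.257, 1.88 and 2.25. One 3.84 kb upstream of Nkx2-2, in an intron of the Nkx2-2os transcript (chr2:147189155-147191321), had 1.63, 2.00, 2.105 and 1.91, and here it was 2 peaks at 1 h alone. The largest downward shifts at 1 h were 17.3 kb upstream of Irx3 (chr8:91818777-91819206), with 2.75, 1.89, 3.54 and 2.79, and 35.6 and 19.3 kb upstream of Lhx4 (chr1:155777116-155778099 and chr1:155761120-155761515), with 2.40, 1.77, 2.69 and 2.78 for the more distant one and 2.24, 1.68, 1.95 and 1.78 for the nearer one. At Irx3 and at the more distant Lhx4 region the 1 h list stood alone below the other 3. All 3 were intergenic, with −log10 q of 1.96 to 3.49 at 1 h.

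Among gained regions, the one 44.5 kb upstream of Six3 (chr17:85576199-85576490, intergenic) had the highest significance. It had a fold enrichment of 3.13 at 8 h and 2.66 in untreated cells, with −log10 q of 15.6 and 10.3, and no peak in the SB-431542 and 1 h lists. A region 19.03 kb downstream of En1 (chr1:120621293-120621744, intergenic) had the same pattern, with 1.82 and 2.80 and −log10 q of 2.48 and 12.6. Around Nkx6-1, a gene of the ventral neural tube and of pancreatic beta cells, a region 9.84 kb downstream was present at 8 h alone (2.07, with −log10 q of 8.63) and one 4.94 kb upstream in untreated cells alone (1.78, with 9.67). A region 12.5 kb upstream of Lhx2, of cortex and eye, was present at 8 h alone (2.46, with 7.66).

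Gains at 1 h were weaker. A region 8.30 kb downstream of Isl2 had 1.92 at 1 h and 1.84 in untreated cells, one in an intron of Barx2 had 2.297, and one in a coding exon of Lhx9 had 1.497, the last 2 at 1 h alone and all 3 with −log10 q of 6.87 to 7.99 at 1 h. In all lists together, 13 of the 595 regions (2.18%, against 2.65%) had a peak at 8 h and in untreated cells alone, and 22 (3.70%, against 6.50%) with SB-431542 and at 1 h alone.

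Of the 70 regions lost at 8 h, 15 had a peak in the other 3 lists, 22 with SB-431542 and at 1 h, 14 with SB-431542 and in untreated cells, and 19 with SB-431542 alone. Over all 49128 regions lost at 8 h the counts were 11766, 18665, 4577 and 14120 in the same order. Of the 70, the 3 with the highest −log10 q had a peak in the other 3 lists. Those 47.0 kb upstream of Vax2 (chr6:83664041-83664456, 3.35, 2.36 and 1.88 with SB-431542, at 1 h and in untreated cells), 48.4 kb upstream of Nkx2-9 (chr12:56661561-56661870, 3.18, 2.29 and 2.57) and 29.6 kb downstream of Gbx2, of the anterior hindbrain (chr1:89901427-89901712, 3.12, 1.94 and 2.34), had no peak at 8 h alone. Their −log10 q was 22.5, 20.2 and 19.1 with SB-431542, and the 8 h list was the shallowest of the 4, at 79.0% of the depth with SB-431542. The part of depth in these losses was not tested.

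In untreated cells, peaks were missing 4.19 kb upstream of Meis1 (1.85, 1.94 and 1.70 with SB-431542, at 1 h and at 8 h), in an intron of Lhx6 (2.39, 2.15 and 1.75) and in an intron of Crnde, 25.2 kb upstream of Irx5 (3.07, 2.24 and 2.35). At 1 h, peaks were missing 23.0 kb downstream of Six6, a retina and pituitary gene (2.93, 2.35 and 2.24 with SB-431542, at 8 h and in untreated cells), in an intron of Lhx8 (1.64 with SB-431542 and 1.91 in untreated cells) and in an intron of Meis1 (1.17 with SB-431542 and 1.24 at 8 h). The Meis1 intron stood apart from all other named regions by its estimated pileup of 3495 units over a background of 2985 with SB-431542, so its low ratio carried a −log10 q of 17.96.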

How the data were processed

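ATAC-seq libraries of P19 cells in 4 signalling states were the source. The labels list 48 libraries, 12 per state, whereas the study's methods speak of fewer sequenced samples, and how the 2 relate is not known. Per the methods, the authors used cutadapt 1.9.1 for trimming and BWA 0.6.2 for alignment to mm10, pooled the libraries of each state, removed duplicates with Picard, and ran MACS2 2.1.1.20160309 in broad mode with no control; bedtools 2.26.0 is also named in the submitters' processing notes. Each deposited list gives per peak a fold enrichment (a ratio of pileup to local background), a −log10 p and a −log10 q as the authors' peak caller computed them from pooled replicates, so nothing about replicates can be recovered. The lowest deposited −log10 q was 1.01. Depth is known only as a relative value from the lowest estimated background, and no peak passed a chromosome end of the reference.

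Peaks of the 4 lists were merged where they overlapped by at least 1 bp, giving 287329 regions, of which 162505 had a peak in every list. A region's value in a list was its highest fold enrichment, expressed as a percentile among the shared regions, and a shift was the signalling state minus SB-431542, counted past 10 points. The promoter ran from 1000 bp upstream to 100 bp downstream of any RefSeq start, and distances were measured to the nearest start of a member. Background and pileup were estimated from fold enrichment and −log10 p under the Poisson model, with each peak taken as 1 point whatever its width. No test was run between states, since each has 1 list. The code was tested on simulated lists with known shifts. Genes and regions were named by rule: the widest promoter of each subfamily with SB-431542, the 3 largest shifts in each direction per comparison among promoters and among shared regions outside promoters, the 3 most significant gained and 3 most significant lost regions, and any gene without a promoter peak. One region and one motif that these rules include are not reported here. Other genes that are named were chosen after their values were seen. The members and gene lists were chosen with earlier results of these data known. Alternatives were a −log10 q minimum of 5, lists of equal length, merging within 200 bp, 50% overlap, a 10-kb window, peaks over the start itself, summed promoter peaks, and ranks by −log10 q, pileup or width-weighted fold enrichment; one more was added after the data were seen. Python 3.11.15, numpy 2.4.6, pandas 2.3.3, scipy 1.17.1, matplotlib 3.10.9 and samtools 1.23.1 were used.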

Additional observations from a re-analysis of the deposited data

How the results depend on the processing

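No paired analysis was possible because each state is 1 list in which replicates are merged, and for the same reason no replicate could be left out. Of 141 comparisons of a result with an alternative, 93 kept their value within 1.5 times or within the spread used. Among them were all with lists of equal length, merging within 200 bp, a peak over the start site or summed promoter widths. Only the count or median of the set was compared, not the share over all features. With lists of equal length, 7.22% of regions were gained and 10.6% lost at 8 h, against 14.2% and 14.8% of all. In the main result the shares over all were 9.2% and 19.4%. With a −log10 q minimum of 5, the median number of regions per gene was 9.5 and 2 promoters were higher at 8 h (4%, against 3.58% of all). There 16 regions were gained at 8 h and 21 in untreated cells (3.38% and 4.39%, against 7.28% and 9.92% of all regions). Gained at 1 h were 13 (2.77%, against 4.18%), with the shares closer together than in the main result. Lost at 1 h were 52 (11.1%, against 17.3%), with the shares further apart. Promoter counts that kept their value stood against higher shares over all promoters. Of 50 promoters, 4 were higher at 1 h (8%, against 5.78%). Lower were 9 at 8 h (18%, against 9.18%) and 8 in untreated cells (16%, against 10.5%). Requiring 50% overlap gave 34 gained and 93 lost at 1 h (6.63% and 16.8%, against 17.7% and 17.3% of all), 57 gained at 8 h (11%, against 16.7%) and 91 lost in untreated cells (16.5%, against 25.8%), so the shares over all features were higher too. Within 10 kb, where fewer regions are counted, the median was 4 per gene and 184 regions were in every list. Of these 184, 18 were higher and 7 lower at 1 h (9.78% and 3.8%, against 11.3% and 12.1% of all). At 8 h the counts were 16 and 27 (8.7% and 14.7%, against 18.7% and 18.5%). For the untreated list they were 18 and 30 (9.78% and 16.3%, against 19.9% and 18.8%). Gains and losses were counted over regions with a peak in either of the lists compared. Of 207 such regions, 4 were gained and 11 lost at 1 h (1.93% and 5.31%, against 10.6% and 11% of all). Of 212, 9 were gained and 9 lost at 8 h (4.25% each, against 9.2% and 19.4%). Of 210, 7 were gained and 12 lost in untreated cells (3.33% and 5.71%, against 11.7% and 17.1%). Ranked by −log10 q, promoters were higher for 1 gene at 1 h, 0 at 8 h and 0 in untreated cells (1.96%, 0% and 0%, against 1.19%, 2.12% and 2.19% of all promoters). They were lower for 0 at 1 h, 4 at 8 h and 6 in untreated cells (0%, 7.84% and 11.8%, against 1.64%, 3.5% and 4.62%). In this ranking 16 shared regions were higher at 1 h (3.74%, against 9.72%). Ranked by estimated pileup, where most promoters lay too near the top to rise by 10 points, 0 promoters were higher in each state. Lower were 0 at 1 h, 0 at 8 h and 1 in untreated cells (0%, 0% and 1.96%, against 1.58%, 2.36% and 3.23% of all promoters). Shared regions were higher for 10 at 1 h and 27 in untreated cells (2.34% and 6.31%, against 8.61% and 16.5%) and lower for 32 at 8 h (7.48%, against 15.1%). By width-weighted fold enrichment, 2 promoters were higher at 1 h and 0 in untreated cells (3.92% and 0%, against 2.45% and 2.74% of all promoters). Lower in this ranking were 7 at 8 h and 8 in untreated cells (13.7% and 15.7%, against 5.14% and 5.83%). In an alternative chosen after seeing the data, with 1 peak in both lists and widths within 1.5 times, promoters were higher for 2 of 33 at 1 h (6.06%, against 1.85% of all), 0 of 38 at 8 h and 0 of 31 in untreated cells and lower for 0, 4 (10.5%, against 4.28%) and 1 (3.23%, against 4.78%), and shared regions were higher for 16 of 335 (4.78%, against 9.91%), 35 of 341 (10.3%, against 16.6%) and 30 of 328 (9.15%, against 18.2%). The cause of these differences was not tested, apart from the smaller window, which counts fewer regions by construction. The 8 h list is the shallowest, and no replicate error is known for any value.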
